A study of Mus musculus with 48 samples.

Results

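The question addressed here is whether MSX-3 changed gene expression in the cortex of APP/PS1 mice by another amount than in the cortex of WT mice. The measure is the genotype by MSX-3 interaction, that is the difference between MSX-3 and H2O in APP/PS1 mice minus the same difference in WT mice, on the log2 scale. It was computed from all cortex arrays on which the scanner software found the grid of spots, 22 of the 48 arrays of the series (24 are cortex arrays). Each array holds the total RNA of the cortex of 1 mouse. The groups are WT mice on H2O (5 arrays), WT mice on MSX-3 (5 arrays), APP/PS1 mice on H2O (6 arrays) and APP/PS1 mice on MSX-3 (6 arrays). The 2 arrays left out, 1 from each WT group, are those without a found grid. All mice were males on a C57Bl6/J background. APP/PS1 mice were heterozygous for the APPswe/PS1dE9 transgenes, which the mouse prion protein promoter drives, and WT mice were their littermates. MSX-3 was given at 0.3 g/L in the drinking water, and the other mice drank water. The start of treatment is 3 months of age in the labels and the methods of the study and 4 months in the deposited design text, and brains were taken at 9 to 10 months after perfusion with saline. Genotypes were caged apart and the drug came through the bottle of a cage. The sources used here do not tie mice to cages, so the group and the cage cannot be told apart.

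The adenosine A2A receptor is a G protein-coupled receptor that raises cAMP through Gs and its relatives, and it is most abundant in the striatum. MSX-3 dissolves in water and releases MSX-2, which selectively blocks the A2A receptor. In APP/PS1 mice amyloid plaques form in the cortex, microglia and astrocytes gather around them, and genes of phagocytosis, complement and the type I interferon response are known to be induced. An interaction below 0 means that the effect of MSX-3 was lower in APP/PS1 mice than in WT mice, which holds alike where the drug lowered a gene in APP/PS1 mice, raised it in WT mice, or both.

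No probe passed the test of the interaction. Of 37677 probes tested with limma, 0 (0%) were called at an adjusted p under 0.05 and a fold of at least 1.5, and the smallest adjusted p was 0.753. At an unadjusted p under 0.05 there were 1756 probes (4.66%), 902 with a higher effect of MSX-3 in APP/PS1 mice (2.39%) and 854 with a lower one (2.27%). The median interaction over all probes was 0.0275, and 54.8% of the probes lay above 0. The effects of MSX-3 that make up the interaction gave no call either. In APP/PS1 cortex 0 probes were called, 6.55% had an unadjusted p under 0.05 and the smallest adjusted p was 0.723, and in WT cortex 0 were called, 10.3% had an unadjusted p under 0.05 and the smallest adjusted p was 0.481. On the same arrays the test called 590 probes between the genotypes on H2O (1.57%) and 607 between the genotypes on MSX-3 (1.61%).

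The size of interaction that these arrays could show differed between probes. The median standard error was 0.211, with quartiles of 0.151 and 0.314. The 95% interval of the interaction lay within 2-fold either way for 77.4% of the probes and within 1.5-fold for 46.3%. For the 30483 probes well above background on all 22 arrays the share within 2-fold was 87.1%, and for the other 7194 probes it was 36%. For most of the dim probes a difference of 2-fold thus lay inside the interval.

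Over the 37677 probes, Pearson's r between the effect in APP/PS1 and the effect in WT mice was 0.0202 and Spearman's rho 0.0931, as a description across probes, which are not independent and share the arrays of each genotype. With no call in either genotype, a correlation near 0 does not show that the effects differed. For 89 probes (0.236%) the MSX-3 and H2O arrays of APP/PS1 mice did not overlap, and for 361 probes (0.958%) those of WT mice did not. No probe was separated in both genotypes in opposite directions (0 of 37677), and 1 probe without a gene name was separated in the same direction.

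**Figure D1:**
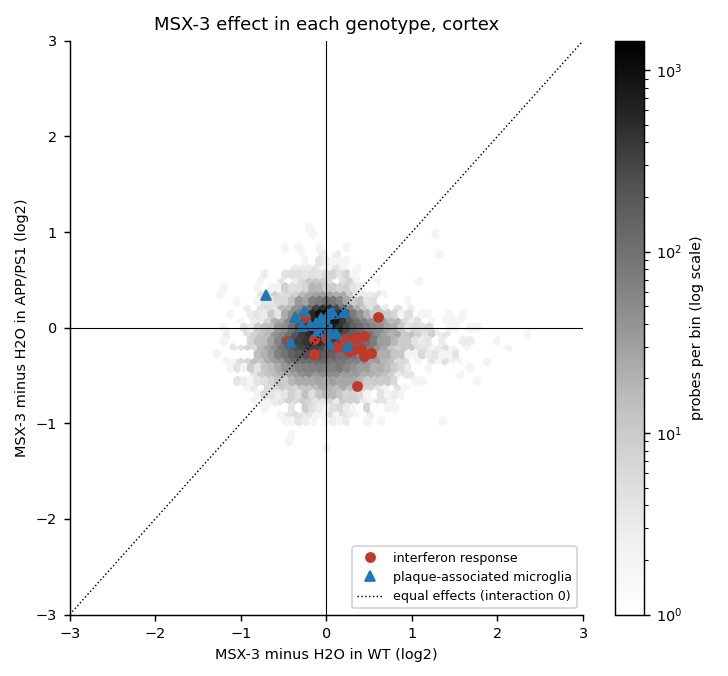
Effect of MSX-3 on each probe in WT cortex (x axis, log2) and in APP/PS1 cortex (y axis, log2), with the number of probes per bin in grey on a log scale. Genes of the interferon response (red circles, 18 genes) and of plaque-associated microglia (blue triangles, 22 genes) are drawn on top, and the dotted line marks equal effects. The cloud has no slope along the dotted line (r 0.0202), and most red circles lie to its lower right.

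The mean share of spots well above background differed between the groups, and the interaction of that measure was small against its spread. On average 70.2% of spots were well above background in WT mice on H2O, 68.1% in WT mice on MSX-3, 65.7% in APP/PS1 mice on H2O and 63.1% in APP/PS1 mice on MSX-3. The interaction was -0.411 percentage points (exact permutation test of treatment within genotype, two-sided, p = 0.907 over 232848 arrangements). Arrays scanned on the first of 2 scan days numbered 2 of 5, 3 of 5, 5 of 6 and 6 of 6 in the same order of groups. The arrays came from 7 slides, none of which held all 4 groups, and 1 slide held 3 of the WT arrays on MSX-3 and no other array used here. With the slide as a fixed term, those 3 arrays do not add to the contrast between groups. The WT MSX-3 part of such values rests on mice 282 and 304. Values with the slide or the scan day as a term are given beside some of the genes described in detail, and for the others they are not given. On the second scan day there was no APP/PS1 array on MSX-3, so no interaction exists within that day. No saturated spot was marked on any of the 22 arrays.

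Prnp, whose gene supplies the promoter and other parts of the transgene vector, gave the check of the genotype labels. WT levels ran from 5.14 to 5.37 on H2O and from 5.24 to 5.35 on MSX-3, where a level is log2 intensity relative to the 75th percentile of the array. APP/PS1 levels were 7.09, 7.33 and 7.45 on H2O (lowest, median and highest of 6) and 7.43, 7.48 and 7.56 on MSX-3. Every APP/PS1 array thus lay above every WT array, and the groups on MSX-3 and H2O overlapped within each genotype. The interaction of Prnp was 0.17 (SE 0.10, unadjusted p = 0.0888, adjusted p = 0.753). App itself, the amyloid precursor, had an interaction of 0.04 (SE 0.15). Among 18 measured genes of the amyloid precursor and its processing, 0 had an unadjusted p under 0.05, and all 18 intervals lay within 2-fold. The median interaction was 0.0863. Their mean level in APP/PS1 mice ran from 1.91 to 2.03 on H2O and from 2.05 to 2.12 on MSX-3, without overlap. In WT mice it ran from 1.87 to 1.96 and from 1.84 to 2.01, with overlap. This is 1 of 24 lists, and the separation was not tested.

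The target of the drug and the other adenosine receptors gave no interaction past the test. Adora2a, the A2A receptor, lay at -3.10, -2.97, -2.88, -2.62 and -1.60 in WT mice on H2O and at -3.20, -2.63, -2.50, -2.49 and -2.37 in WT mice on MSX-3. The APP/PS1 arrays lay at -3.20, -3.08 and -2.33 on H2O and at -3.28, -2.78 and -2.48 on MSX-3. The 4 groups overlapped, with an interaction of 0.11 (SE 0.33, 95% interval -0.57 to 0.80). Adora1, the inhibitory A1 receptor, was measured more closely, with an interaction of 0.24 (SE 0.13, unadjusted p = 0.0725). Its levels on H2O and MSX-3 were 3.51 to 3.95 and 3.81 to 4.08 in APP/PS1 mice and 3.74 to 4.03 and 3.62 to 3.97 in WT mice, with overlap throughout. Adora2b and Adora3 had interactions of -0.08 (SE 0.30) and -0.02 (SE 0.15). None of the 14 measured genes that make, carry or remove adenosine had an unadjusted p under 0.05, among them Nt5e, which forms extracellular adenosine (0.04, SE 0.25), and the transporter Slc29a1 (0.11, SE 0.18).

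In the signalling chain below the receptor, 23 of 28 genes had an interaction above 0, with a median of 0.0899 against 0.0275 over all probes, and 3 had an unadjusted p under 0.05. Adcy8, a calcium-stimulated adenylyl cyclase, had the largest interaction of the list. Its levels were -2.30, -2.28, -2.20, -2.08 and -2.03 in WT mice on H2O and -2.83, -2.82, -2.46, -2.42 and -2.31 in WT mice on MSX-3. APP/PS1 levels were -3.18, -2.58 and -2.50 on H2O and -2.66, -2.38 and -1.99 on MSX-3. All WT arrays on MSX-3 thus lay below all WT arrays on H2O, while the APP/PS1 arrays overlapped and were centred higher on MSX-3. The interaction was 0.75 (SE 0.20, 1.68-fold, unadjusted p = 0.0011, adjusted p = 0.753). It was 0.71 (SE 0.23) with the slide as a term, 0.76 (SE 0.17) with the scan day and 0.48 (SE 0.21) on the arrays of the first scan day.

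Crtc1, a coactivator of the cAMP response factor CREB, lay the other way. Its levels in WT mice were 3.46, 3.51, 3.54, 3.76 and 3.81 on H2O and 3.67, 3.84, 3.94, 3.95 and 4.03 on MSX-3, and in APP/PS1 mice 3.69, 3.82 and 3.96 on H2O and 3.48, 3.75 and 4.00 on MSX-3. The WT groups overlapped only at their edges and the APP/PS1 groups overlapped widely, with an interaction of -0.34 (SE 0.13, unadjusted p = 0.0164). Pde1b, a calcium-activated phosphodiesterase, had 0.30 (SE 0.14, unadjusted p = 0.0394) and Gnas, the alpha subunit of Gs, 0.31 (SE 0.17, unadjusted p = 0.0756). The cyclase Adcy5 (0.13, SE 0.19) and the phosphodiesterase Pde10a (0.16, SE 0.29), both typical of the striatum, and the catalytic subunit Prkaca (0.13, SE 0.11) had unadjusted p-values over 0.05. Markers of striatal neurons, which tell of striatal tissue taken along with the cortex, had a median interaction of 0.099. Of these 18 genes, 1 had an unadjusted p under 0.05 (Rarb, 0.24, SE 0.10). Dimmer probes of Rarb had 0.09 (SE 0.19) and -0.11 (SE 0.58). The list median of cAMP signalling kept no single sign and ran from -0.0325 to 0.128 over the processing alternatives.

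Immediate early genes, which neuronal activity and cAMP induce within minutes, had low precision. Only 5 of 20 intervals lay within 2-fold, 6 of 20 genes were above 0, the median was -0.239 and 0 had an unadjusted p under 0.05. Arc (-0.56, SE 0.78), Fos (-0.50, SE 0.68) and Egr1 (-0.30, SE 0.34) lay below 0. Jun lay above 0, with an interaction of 0.56 (SE 0.30, unadjusted p = 0.0756) and 1 of the WT arrays on MSX-3 at 0.79 where the other four lay between 1.72 and 2. The list median was 0.0637 when the slide was a term of the fit. CREB binds the cAMP response element TGACGTCA. RefSeq promoters (GRCm38.p6, 250 bases before to 50 bases after each start) held this run of letters, which reads the same on both strands, in 588 of 32851 promoters (1.79%), and in those of 2 of the 15 immediate early genes in that table. They are shown to give the context of the element, in capitals, and the search was chosen after the list values were seen.
Btg2 (chr1:134079290-134079345, minus strand): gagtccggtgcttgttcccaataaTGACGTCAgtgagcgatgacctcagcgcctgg
Dusp1 (chr17:26508584-26508639, minus strand): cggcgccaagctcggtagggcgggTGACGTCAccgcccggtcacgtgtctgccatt
Btg2, an antiproliferative gene, had an interaction of 0.30 (SE 0.41) and Dusp1, a phosphatase of MAP kinases, of -0.17 (SE 0.49). Over all 429 measured genes with the element, 9 had a higher and 2 a lower effect at an unadjusted p under 0.05 (2.56%), against 4.51% of the 13092 measured genes in the table.

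Genes of the interferon response had the lowest median of the 24 lists. Of 18 measured genes 14 were below 0, the median interaction was -0.418, and 5 had an unadjusted p under 0.05, all 5 lower, against 2.27% of all probes lower at that level. None was called. The median effect of MSX-3 was -0.167 in APP/PS1 mice and 0.235 in WT mice. On H2O, 15 of the 18 genes were called between the genotypes, against 1.57% of all probes, with a median of 1.39 (APP/PS1 minus WT). On MSX-3 it was 14 genes, against 1.61% of all probes, with a median of 0.89. These medians come from the same arrays as the interaction. Since the tissue was measured in bulk, fewer cells of a type and less RNA per cell cannot be told apart here or below.

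Ifit1, an interferon-induced protein that binds foreign RNA, lay lowest in the list. Its levels were -4.39, -4.17, -4.10, -3.95 and -3.90 in WT mice on H2O and -3.93, -3.91, -3.71, -3.60 and -3.59 in WT mice on MSX-3. The APP/PS1 arrays gave -2.90, -2.59 and -1.47 on H2O and -3.58, -3.10 and -2.41 on MSX-3. Both pairs of groups overlapped, the WT pair only at -3.93 to -3.90, and the highest array of all was an APP/PS1 array on H2O. The effect of MSX-3 was -0.61 (SE 0.21) in APP/PS1 mice and 0.36 (SE 0.23) in WT mice, and the interaction was -0.96 (SE 0.31, 95% interval -1.60 to -0.32, unadjusted p = 0.00545, adjusted p = 0.753). With the slide as a term the interaction was -1.06 (SE 0.51), with the scan day -0.96 (SE 0.32), and on the first scan day alone -1.05 (SE 0.44).

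Oasl2, a relative of the oligoadenylate synthetases, lay at -3.34, -3.14, -2.92, -2.92 and -2.75 in WT mice on H2O and at -2.83, -2.71, -2.70, -2.49 and -2.12 in WT mice on MSX-3. Its levels in APP/PS1 mice were -1.29, -0.85 and -0.15 on H2O and at -1.45, -1.11 and -0.66 on MSX-3. The MSX-3 arrays were centred higher in WT and lower in APP/PS1 mice, with overlap in both, and the interaction was -0.74 (SE 0.26, unadjusted p = 0.00983). It was -0.835 (SE 0.36) with the slide as a term and -0.74 (SE 0.27) with the scan day. The other three were Irf7, the transcription factor that amplifies the response (-0.64, SE 0.28), Ifi44 (-0.79, SE 0.36) and Usp18, which removes ISG15 from proteins and dampens receptor signalling (-0.54, SE 0.26). Isg15, the ubiquitin-like protein itself, had -0.50 (SE 0.25, unadjusted p = 0.0587). The genes above 0 were Ifit2 (0.36, SE 0.24), Rsad2 (0.32, SE 0.35), the signalling factor Stat2 (0.16, SE 0.13) and Xaf1 (0.03, SE 0.20).

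Trim34a and Oas1f, which were not in the list, belong to families that interferon induces and were among the 10 named genes with the smallest p on the lower side. Trim34a lay at -4.41, -4.19, -4.09, -4.01 and -3.98 in WT mice on H2O and at -3.84, -3.79, -3.79, -3.60 and -3.43 on MSX-3, and in APP/PS1 mice at -2.93, -2.74 and -2.45 on H2O and at -3.57, -3.08 and -2.68 on MSX-3. The WT groups did not overlap, and the APP/PS1 groups did. Its interaction was -0.80 (SE 0.18, unadjusted p = 0.000298, adjusted p = 0.753), the smallest p of any named gene, and -0.66 (SE 0.26) with the slide as a term. Oas1f had an interaction of -0.65 (SE 0.19, unadjusted p = 0.00237). Its WT arrays on MSX-3, from -3.16 to -2.59, lay above all those on H2O, from -3.61 to -3.29, and its APP/PS1 arrays overlapped. Both genes were chosen by the p of this contrast, so their size is a description.

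The mean level of the 18 interferon genes per array showed the same order with overlap. It was -2.48, -2.44, -2.31, -2.17 and -2.15 in WT mice on H2O and -2.31, -2.17, -2.16, -2.11 and -1.96 in WT mice on MSX-3. In APP/PS1 mice the lowest, median and highest were -1.13, -0.74 and -0.41 on H2O and -1.18, -0.89 and -0.53 on MSX-3. The list median stayed below 0 under each processing alternative and each left-out mouse. It ran from -0.558 with the slide as a term to -0.274 after normexp background correction, where 3 genes had an unadjusted p under 0.05. With only probes well above background on every array it was -0.354. On arrays of the first scan day alone, 2 of them WT arrays on H2O, it was -0.441 with 2 of 18 genes above 0.

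**Figure D2:**
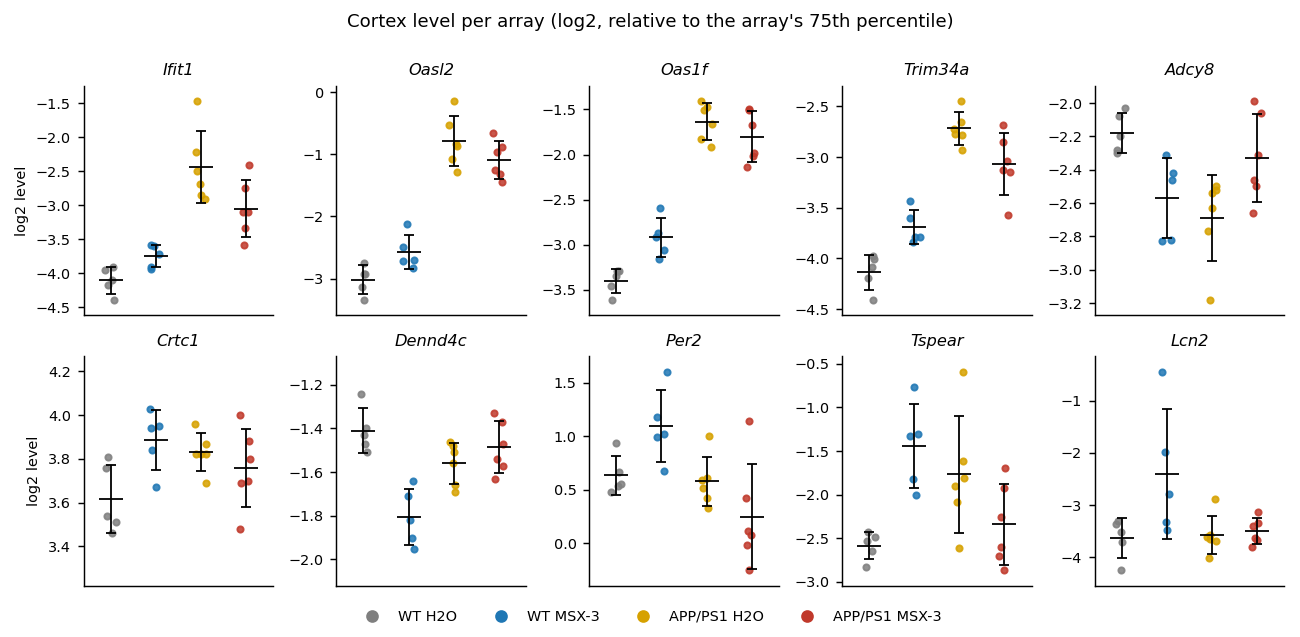
Level of 10 genes on each cortex array (y axis, log2 relative to the array's 75th percentile), with a point per mouse, coloured by group, and the group mean with its SD in black. The genes are those with the most detailed accounts in the text. Ifit1, Oasl2, Oas1f and Trim34a were higher in APP/PS1 than in WT arrays, and the gap between genotypes was smaller on MSX-3. These genes were picked by a small p of the interaction, so the smaller gap restates that choice. None of them was called.

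Interferon acts through the ISRE, an element bound by a complex that holds STAT2 and IRF9. Taken as a pair of GAAA runs with 2 bases of any kind between them, read on either strand, it was found in 1131 of 32851 RefSeq promoters (3.44%) and in those of 9 of the 14 interferon genes in the table. The windows below, each with a match in capitals, show how the element stands in list genes from the lowest interaction, Ifit1, to one above 0, Rsad2, and the search was chosen after the list values were seen.
Ifit1 (chr19:34640761-34640818, plus strand, match 104 bases before the start): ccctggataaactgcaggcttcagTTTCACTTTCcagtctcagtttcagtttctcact
Isg15 (chr4:156200851-156200908, minus strand, 66 bases before the start): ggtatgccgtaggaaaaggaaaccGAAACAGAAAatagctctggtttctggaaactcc
Oas1a (chr5:120907526-120907569, minus strand, 20 bases before the start): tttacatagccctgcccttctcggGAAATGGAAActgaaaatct
Cxcl10 (chr5:92349069-92349126, minus strand, 213 bases before the start): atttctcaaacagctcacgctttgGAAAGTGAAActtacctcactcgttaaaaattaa
Rsad2 (chr12:26456539-26456596, minus strand, 120 bases before the start): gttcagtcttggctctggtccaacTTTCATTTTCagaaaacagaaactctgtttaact
Ifit1 and Isg15 each held a further match close by. Oas1a had an interaction of -0.52 (SE 0.27), Cxcl10 of -0.49 (SE 0.85) and Rsad2 of 0.32 (SE 0.35), so genes with a match lay on both sides of 0. Cxcl10 was well above background on 2 of 5 arrays in each WT group. Among all 488 measured genes with a match, 11 had a higher and 24 a lower effect at an unadjusted p under 0.05, together 7.17% against 4.51% of the measured genes in the table, and their median of 0.0201 was close to the 0.0393 of all. A match is a run of letters and no measure of binding.

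Genes of plaque-associated microglia, which were far higher in APP/PS1 mice, had interactions around 0. On H2O 19 of 22 were called between the genotypes, against 1.57% of all probes, with a median of 1.90. On MSX-3 it was 18, against 1.61% of all probes, with a median of 1.83. The median interaction was 0.107, 17 of 22 genes were above 0, and 17 of 22 intervals lay within 2-fold. Cd68, a lysosomal protein of phagocytes, was among the most closely measured, at 0.02 (SE 0.14, 95% interval -0.27 to 0.30). Its levels on H2O and MSX-3 were -0.31 to -0.16 and -0.36 to -0.14 in WT mice and 1.42 to 2.11 and 1.75 to 2.05 in APP/PS1 mice. Trem2, the lipid-sensing receptor of these cells, had 0.16 (SE 0.17) and its adaptor Tyrobp 0.11 (SE 0.17). Apoe had 0.22 (SE 0.14), Lpl 0.27 (SE 0.18), the pattern receptor Clec7a 0.48 (SE 0.33) and the protease inhibitor Cst7 0.06 (SE 0.49). Of the WT arrays on H2O and MSX-3, Clec7a was well above background on 5 and 3 of 5 and Cst7 on 4 and 2 of 5.

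The chemokine Ccl4 was the gene of this list with an unadjusted p under 0.05, and its value rests on WT arrays near background. Its levels were -5.99, -5.94, -5.67, -5.06 and -4.92 in WT mice on H2O and -7.21, -6.86, -6.04, -5.76 and -5.21 in WT mice on MSX-3, of which 3 of 5 and 1 of 5 were well above background. In APP/PS1 mice, all well above background, they were -1.12, -1.0 and -0.40 on H2O and -1.12, -0.56 and -0.22 on MSX-3. The groups overlapped in each genotype. The interaction was 1.04 (SE 0.41, unadjusted p = 0.0189, adjusted p = 0.753), to which WT mice gave -0.70 and APP/PS1 mice 0.34. A further probe of Ccl4, well above background on 2 of 5 and 1 of 5 WT arrays, had 1.58 (SE 0.42). Ccl3, at 3 of 5 and 1 of 5 such WT arrays, had 0.44 (SE 0.53), and the integrin Itgax, at 1 of 5 in both WT groups, had -0.20 (SE 0.36).

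Axl, a receptor for dying cells, lay at 2.27, 2.30, 2.38, 2.47 and 2.49 in WT mice on H2O and at 1.89, 2.03, 2.12, 2.15 and 2.32 on MSX-3, with a median of 2.84 in both APP/PS1 groups. Its interaction was 0.30 (SE 0.16, unadjusted p = 0.068). Homeostatic microglial genes, which are typical of microglia away from plaques, were centred higher in APP/PS1 mice. The list medians of the genotype difference were 0.493 on H2O and 0.775 on MSX-3. Both medians were the values of P2ry13, the gene with the highest interaction of the list. The mean level of the list was 1.37 in WT and 1.94 in APP/PS1 mice on H2O, and 1.35 and 1.96 on MSX-3. The list had a median interaction of 0.0273, beside 0.0275 over all probes, with 14 of 15 intervals within 2-fold. Among them P2ry12 had -0.13 (SE 0.18), Tmem119 0.02 (SE 0.18), Cx3cr1 0.00 (SE 0.16), Csf1r 0.03 (SE 0.13) and P2ry13 0.28 (SE 0.15, unadjusted p = 0.0728).

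**Figure D3:**
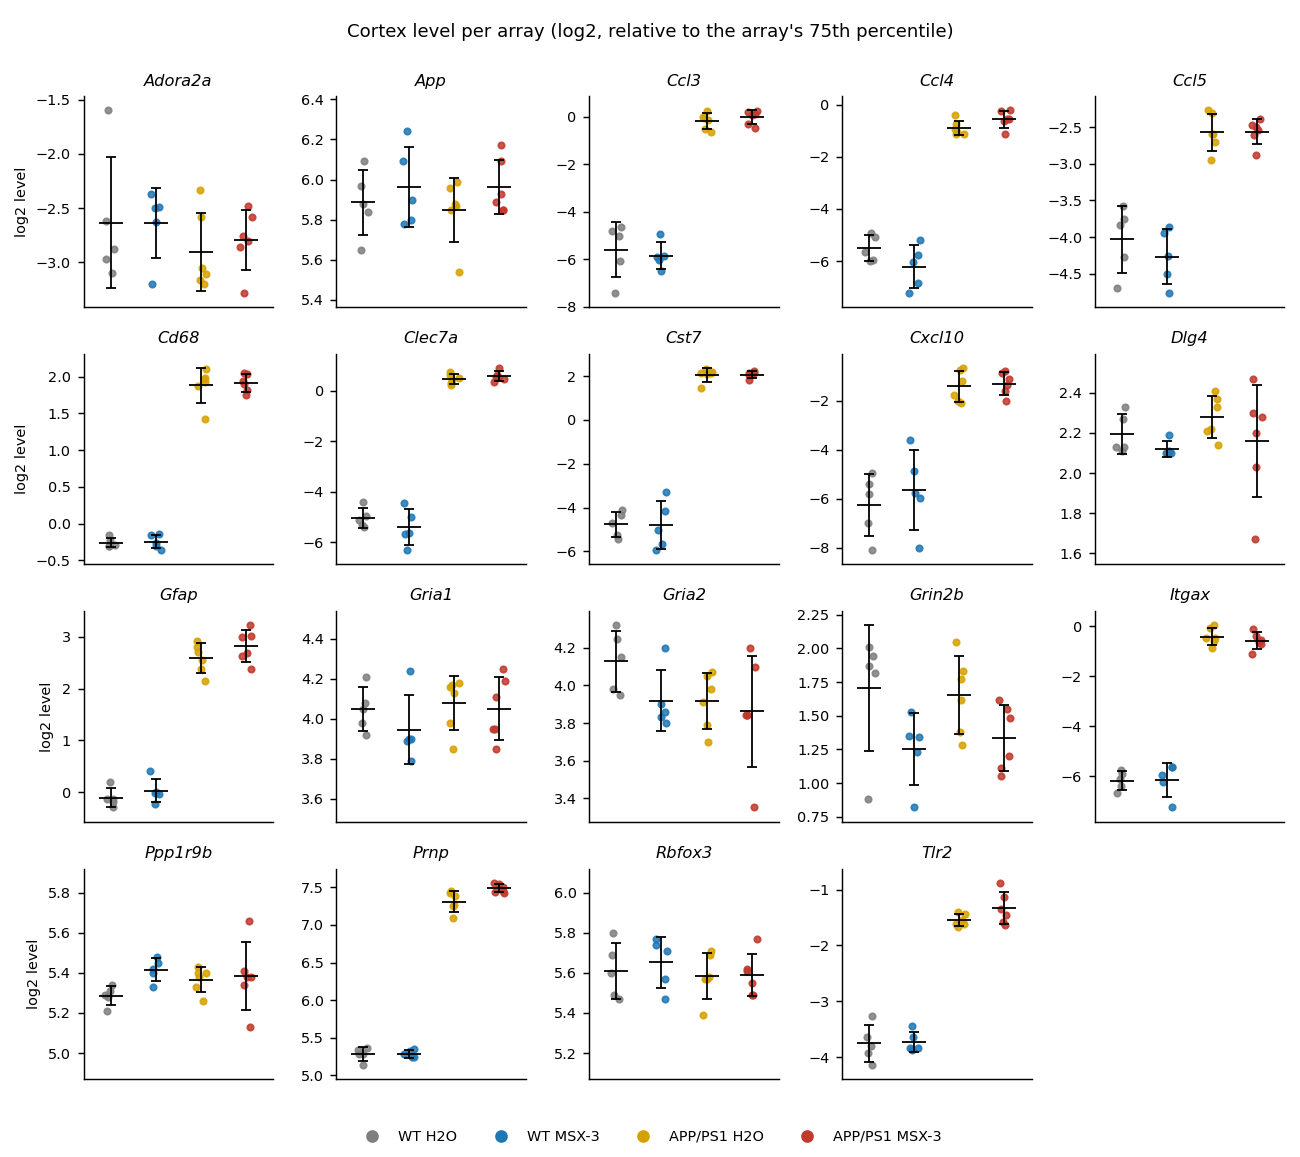
Level of 19 genes that the study named or that check its labels and tissue, on each cortex array (y axis, log2 relative to the array's 75th percentile), with a point per mouse and the group mean with its SD in black. Microglial and astrocyte genes such as Cd68, Clec7a, Cst7 and Gfap stand apart by genotype, and within a genotype the MSX-3 and H2O points of all 19 genes overlap.

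Complement and antigen presentation genes lay near the median of all probes, at 0.0188 with 11 of 19 above 0. C3, the central complement protein, had an interaction of -0.78 (SE 0.31, unadjusted p = 0.0185). Its levels were -1.71, -1.60, -1.56, -1.27 and -1.25 in WT mice on H2O and -1.75, -1.03, -0.96, -0.85 and -0.29 in WT mice on MSX-3. APP/PS1 arrays gave -1.69, -1.06 and -0.25 on H2O and -1.50, -1.32 and -1.03 on MSX-3. One WT array on MSX-3 was the lowest of all arrays and the others in that group lay above the WT arrays on H2O. With the slide as a term the interaction was -0.04 (SE 0.15), and on the first scan day -0.45 (SE 0.24). A dimmer probe of C3 had 0.06 (SE 0.33) over all arrays without a slide term, so the probes disagreed. C1qa (0.19, SE 0.21), C1qb (0.19, SE 0.23) and C4b (0.02, SE 0.18), which were higher in APP/PS1 mice, had unadjusted p-values over 0.05.

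Reactive astrocyte genes had a median of -0.148, with 4 of 14 above 0. Gfap, the intermediate filament of reactive astrocytes, had 0.10 (SE 0.22), with APP/PS1 levels of 2.15 to 2.92 on H2O and 2.38 to 3.22 on MSX-3. Lcn2, a secreted lipocalin of acute inflammation, had -1.15 (SE 0.53, unadjusted p = 0.0411). It lay at -4.25, -3.70, -3.52, -3.37 and -3.31 in WT mice on H2O and at -3.48, -3.33, -2.78, -1.99 and -0.45 on MSX-3, and between -4.01 and -2.89 in all APP/PS1 mice. The value thus came from the WT groups, where 3 of the MSX-3 arrays lay above all others. It was -2.15 (SE 0.69) with the slide as a term and -0.47 (SE 0.39) on the first scan day. Serpina3n (-0.22, SE 0.25), Vim (-0.14, SE 0.18) and Osmr (-0.22, SE 0.25) had unadjusted p-values over 0.05. General astrocyte genes had a median of 0.10, with Aqp4 at -0.12 (SE 0.19) and Slc1a2 at 0.21 (SE 0.21), and 0 of 13 had an unadjusted p under 0.05.

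**Figure D4:**
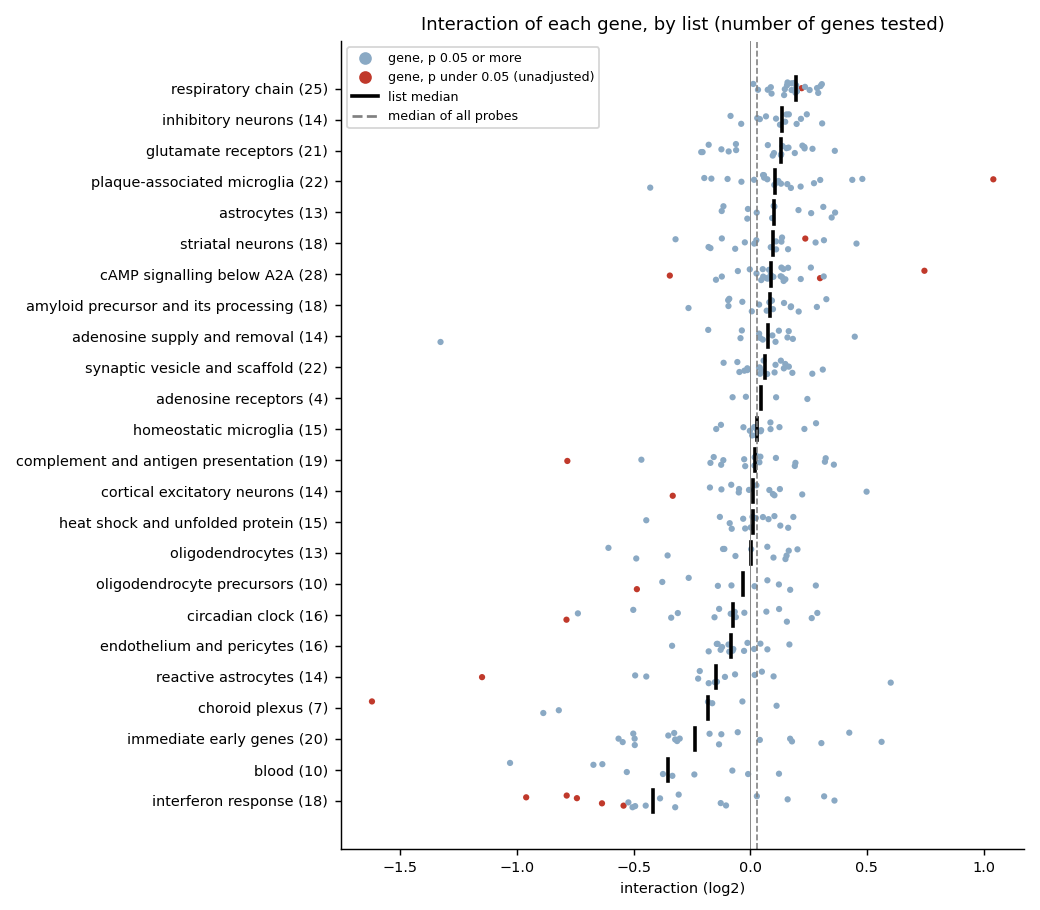
Interaction of each measured gene (x axis, log2) by list (y axis, with the number of genes tested), where a point is a gene, red points have an unadjusted p under 0.05 and black bars are list medians. List medians ran from -0.418 for the interferon response to 0.194 for the respiratory chain, and the dashed line marks the median of all probes, 0.0275.

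All 25 measured genes of the respiratory chain were above 0, with the highest median of the lists, 0.194, and 1 had an unadjusted p under 0.05. All 25 intervals lay within 2-fold. The median effect of MSX-3 was 0.174 in APP/PS1 mice and -0.00845 in WT mice. Genes measured on the same arrays are not independent of each other. Uqcrc2, a core subunit of complex III, lay at 4.18, 4.28 and 4.45 in APP/PS1 mice on H2O and at 4.45, 4.46 and 4.74 on MSX-3, without overlap before rounding. In WT mice it lay at 4.35, 4.38, 4.44, 4.44 and 4.55 on H2O and at 4.34, 4.35, 4.42, 4.45 and 4.56 on MSX-3. The interaction was 0.22 (SE 0.10, 1.17-fold, unadjusted p = 0.0438), and 0.06 (SE 0.15) with the slide as a term. Ndufs1 of complex I had 0.29 (SE 0.14, unadjusted p = 0.0534), Sdhc of complex II 0.29 (SE 0.15) and Cox4i1 of complex IV 0.30 (SE 0.16).

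The mean level of the 25 genes per array was 4.96, 4.97, 5.02, 5.04 and 5.11 in WT mice on H2O and 4.92, 4.97, 4.98, 5.11 and 5.12 in WT mice on MSX-3. In APP/PS1 mice the lowest, median and highest were 4.77, 4.95 and 5.07 on H2O and 4.99, 5.09 and 5.38 on MSX-3. The APP/PS1 arrays on H2O were centred lowest and those on MSX-3 highest, and all groups overlapped. The list median was 0.0883 after quantile normalization with 21 of 25 genes above 0, 0.184 after normexp background correction with 23 of 25, and 0.0374 with the slide as a term with 17 of 25. Over all 24 cortex arrays it was 0.0728 with 15 of 25 above 0, where the median over all probes was -0.0994.

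Neuronal and synaptic genes were measured closely and gave no gene past the test. In the synaptic list 16 of 22 genes were above 0 with a median of 0.0648, among glutamate receptors 14 of 21 with a median of 0.131, and among inhibitory neuron genes 12 of 14 with a median of 0.138. None of the genes of these 3 lists had an unadjusted p under 0.05, and every interval lay within 2-fold. The postsynaptic scaffold Dlg4 had -0.05 (SE 0.15), the AMPA receptor subunits Gria1 and Gria2 had 0.08 (SE 0.13) and 0.16 (SE 0.18), and Grin2b of the NMDA receptor had 0.13 (SE 0.27). The spine protein Ppp1r9b had -0.11 (SE 0.10) and the neuronal marker Rbfox3 -0.04 (SE 0.12). Among inhibitory neuron genes, Pvalb had 0.31 (SE 0.23), Slc32a1 0.22 (SE 0.12) and Gad1 0.11 (SE 0.15). Of the genes of cortical excitatory neurons 1 of 14, Neurod6, had an unadjusted p under 0.05 (-0.33, SE 0.15), and its sign turned under 1 alternative.

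Of the clock genes, which cycle over the day, Per2 had an interaction of -0.79 (SE 0.28, unadjusted p = 0.00988). Its levels were 0.48, 0.54, 0.55, 0.67 and 0.94 in WT mice on H2O and 0.68, 0.99, 1.02, 1.18 and 1.60 on MSX-3. APP/PS1 levels were 0.33, 0.56 and 1.0 on H2O and -0.25, 0.10 and 1.14 on MSX-3. The MSX-3 groups held both the highest and the lowest array, and all groups overlapped. With the slide as a term the interaction was -0.64 (SE 0.39). The clock gene Ciart had -0.74 (SE 0.36, unadjusted p = 0.0517), and a dimmer probe of Ciart had -0.05 (SE 0.27). The list of 16 genes had a median of -0.0753. All mice were killed in the afternoon, and the hour for each mouse, whose part in these values was not tested, is not given in the sources used here.

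Oligodendrocyte lineage genes were mostly near 0. Vcan, a matrix proteoglycan of oligodendrocyte precursors, had -0.49 (SE 0.15, unadjusted p = 0.00401). WT levels were -2.10 to -1.76 on H2O and -1.93 to -1.41 on MSX-3, and APP/PS1 levels -2.02 to -1.37 on H2O and -2.10 to -1.80 on MSX-3. Dimmer probes of Vcan had -0.22 (SE 0.16) and 0.09 (SE 0.28). The precursor list had a median of -0.0313 and the list of mature oligodendrocytes 0.00396, with Mobp at -0.49 (SE 0.29) and Mog at -0.35 (SE 0.21). Dimmer probes of Mobp and Mog had 0.08 (SE 0.28) and -0.03 (SE 0.26). Endothelial and pericyte genes had a median of -0.0829, heat shock and unfolded protein genes 0.00952, and neither list held a gene with an unadjusted p under 0.05.

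Markers of blood and choroid plexus, which tell of blood or neighbouring tissue in the piece taken, were uneven between the groups. The mean level of 10 blood genes ran from -2.51 to -1.68 in WT mice on H2O, from -2.18 to -1.30 in WT mice on MSX-3, from -2.65 to -1.81 in APP/PS1 mice on H2O and from -2.26 to -1.09 in APP/PS1 mice on MSX-3. Their median interaction was -0.354, with 1 of 10 above 0, 0 of 10 at an unadjusted p under 0.05 and 2 of 10 intervals within 2-fold. The hemoglobin gene Hbb-bt had -0.67 (SE 0.88). In the choroid plexus list the median was -0.181 with 1 of 7 above 0, and Ttr had -0.89 (SE 1.19). Prlr had -1.62 (SE 0.62, unadjusted p = 0.0158), and a dimmer probe of Prlr had 0.19 (SE 0.37). On the brighter probe 1 WT array on MSX-3 lay at -2.17 where the others of its group lay between -3.92 and -3.57. The blood and choroid plexus markers lay higher in WT mice on MSX-3 beside the higher interferon genes and Lcn2 in that group. Their part in those values was not tested.

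The 10 named genes with the smallest p in each direction were chosen by the interaction itself, so their values are a description, and each had an adjusted p of 0.753. On the higher side were Dennd4c, Cdkl3, Plxnd1, Lca5, Rgs3, Tcerg1l, Mex3b, Ccl4, Rfc3 and Adcy8. Dennd4c, a factor of Rab10 trafficking, lay at -1.51, -1.47, -1.43, -1.40 and -1.24 in WT mice on H2O and at -1.95, -1.90, -1.82, -1.71 and -1.64 on MSX-3, without overlap, and at -1.69 to -1.46 and -1.63 to -1.33 in APP/PS1 mice. Its interaction was 0.47 (SE 0.11), to which WT mice gave -0.39, and its sign turned under 1 alternative, at -0.12. Rgs3, which speeds the shut-off of G protein signals, had 0.59 (SE 0.15), with -0.23 in WT and 0.37 in APP/PS1 mice. Its 3 other probes had 0.53 (SE 0.17), 0.43 (SE 0.27) and -0.16 (SE 0.19). The semaphorin receptor Plxnd1 had 0.47 (SE 0.11) and 0.40 (SE 0.18) on its brighter probe, and on H2O it was lower in APP/PS1 than in WT mice by a log2 difference of -0.46, on MSX-3 by 0.01 in the other direction. Rfc3, a subunit of the clamp loader of DNA replication, had 0.63 (SE 0.17) and Mex3b, an RNA-binding protein, 0.47 (SE 0.12). Cdkl3 was well above background on all 5 WT arrays on H2O and on 0 of those on MSX-3, and in APP/PS1 mice on 0 arrays with H2O and 1 with MSX-3, so no size is given for it, and its 3 brighter probes had 0.08 (SE 0.12), -0.12 (SE 0.26) and 0.19 (SE 0.34).

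On the lower side were Trim34a, Tspear, Tuba3b, Oas1f, Spem2, Tmem114, Bcas3, Gpr89, Esrp1 and Pter. Tspear lay at -2.83, -2.65, -2.53, -2.49 and -2.43 in WT mice on H2O and at -2.0, -1.82, -1.33, -1.30 and -0.77 on MSX-3, without overlap. The APP/PS1 arrays lay at -2.61, -1.86 and -0.59 on H2O and at -2.87, -2.43 and -1.69 on MSX-3, with overlap, and its interaction of -1.72 (SE 0.40, unadjusted p = 0.000319) was the largest of these 20. Spem2, a gene of sperm maturation, had -1.61 (SE 0.47), Esrp1, a splicing factor of epithelia, -1.02 (SE 0.31), and Tmem114 -0.67 (SE 0.19). The probe of Bcas3 chosen by its p had -0.88 (SE 0.27), and a brighter probe of Bcas3 had -0.04 (SE 0.14), so the probes disagreed. Tuba3b, an alpha tubulin, was well above background on 4 of 6 and 2 of 6 APP/PS1 arrays on H2O and MSX-3, beside all WT arrays, and had -1.14 (SE 0.31).

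**Figure D5:**
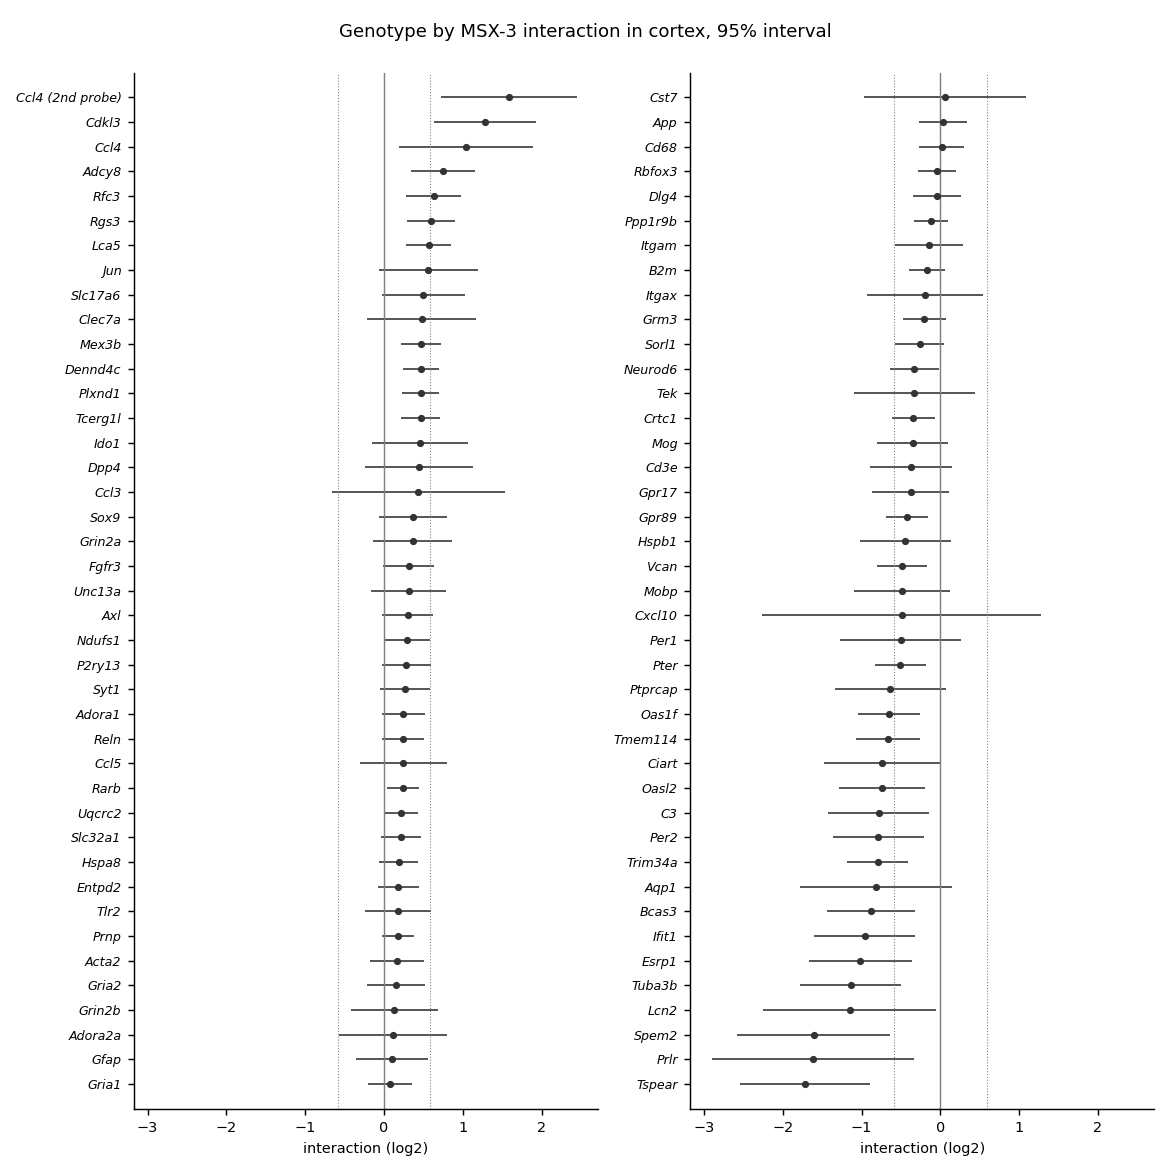
Interaction of 82 named probes (x axis, log2) with its 95% interval, ordered by size, where dotted lines mark 1.5-fold in either direction. Intervals of the probes at both ends leave out 0 without adjustment for the number of probes tested, and none had an adjusted p under 0.05. Cdkl3, Ccl4 and other genes with arrays near background are drawn as fitted.

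The hippocampus, with 24 arrays of which 22 are from the mice of the cortex arrays, gave the comparison with another region. There the interaction had 0 calls among 38128 probes, 4.86% at an unadjusted p under 0.05 and a smallest adjusted p of 0.89. The difference between the regions, tested on both regions in 1 fit, had 0 calls among 39063 probes, 6.66% at an unadjusted p under 0.05 and a smallest adjusted p of 0.636. Across the 36742 probes measured in both, Pearson's r between the interactions was -0.292, a description across probes, with 22 mice in both regions. The median of the interferon list was -0.295 in the hippocampus, with 2 of 17 genes above 0, so the list lay below 0 in both regions. Most of the 24 lists had a median below 0 in the hippocampus, so this is not particular to interferon genes. Over all probes tested in the hippocampus the median interaction was 0.0272, with 54.9% above 0. Oligodendrocytes (-0.394) and immediate early genes (-0.301, 1 of 20 above 0) lay lower than the interferon list there. The respiratory chain lay below 0 there, at -0.134 with 3 of 25 above 0, and for 10 of the 25 genes the difference between the regions had an unadjusted p under 0.05. For Ifit1 the interaction was -0.08 in the hippocampus and the difference between regions had an unadjusted p of 0.262, and for Adcy8 it was -0.45 with an unadjusted p of 0.0026 for the difference. The choroid plexus list had a median of 1.20 in the hippocampus, with 7 of 7 genes above 0 and 0 of 7 at an unadjusted p under 0.05. Over all 24 lists, 17 of 375 measured genes had an unadjusted p under 0.05 for the cortex interaction (4.53%), 5 higher and 12 lower, close to the 4.66% of all probes.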

How the data were processed

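Cortex RNA of each mouse was labelled with Cy3 and hybridised to one-color Agilent 8x60k arrays. The authors extracted the intensities with Agilent Feature Extraction 10.7.3.1, and the deposited intensities are background-subtracted and not normalized between arrays. The deposited series matrix equals them at all 3022848 values (relative tolerance 1e-06). Here log2 intensities were taken, the 75th percentile over non-control spots of each array was subtracted, spots with outlier marks were left out, and spots of a probe were averaged. Probes were kept if in any group 4 arrays or more marked them as well above background. The 4 groups were fitted with lmFit and eBayes of limma 3.58.1 (R 4.3.3, data.table version 1.17.8), with Benjamini-Hochberg adjustment over all 37677 probes, and a call needs an adjusted p under 0.05 and a fold of at least 1.5. Unadjusted p-values are also from limma. Each mouse is 1 array, and the number of arrays limits the precision.

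The 2 cortex arrays without a found grid (median correlation with the other arrays 0.004 and 0.001, against 0.974 to 0.987) were left out. Of 56605 probes, 33065 had a gene name and 23540 had none, 59 of the names coming from tables of the study. A gene of a list stands for its brightest kept probe, and the 10 genes chosen by p in each direction stand for the probe that was chosen. Values of other probes are given for some genes only. Members and lists were chosen with earlier results of these data known. Named genes are 20 genes that the study named or that check its labels and tissue, the 2 genes with the smallest p of each list, and in each direction the 10 called genes with the largest fold or, with fewer than 10 called, the 10 with the smallest p. Some genes under this rule are not reported here. Promoter sequences are from RefSeq (GRCm38.p6). The fit was tested on simulated data. The files hold no probe sequence used here. The mice were paired across regions by their number in the labels: after removal of group means the correlation between the regions of a mouse had a median of 0.0383 (-0.52 to 0.499), with 10 of 22 above 0.1. Alternatives were another background correction, normalization, filter, fit and block, and leaving out each mouse.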

Additional observations from a re-analysis of the deposited data

Results flagged for a closer look

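In 25 of 340 groups of 5 or 6 arrays (7.35%), a single array stood apart from the rest of its group by Dixon's criterion. The groups are those of named probes and of the share of spots well above background and the 75th percentile. Chance gives about 1 in 20 for independent groups, but these share the same arrays and many probes were picked by p. The arrays that stood apart are described as levels, log2 relative to the 75th percentile, and the causes were not tested.

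WT mouse 282 on MSX-3 held 6 of them, the highest of its group in each: the synaptic genes Dlg4 (2.19), Gria1 (4.24) and Gria2 (4.20), the respiratory gene Ndufs1 (4.22), the microglial receptor P2ry13 (-1.74) and Rgs3 (-0.31). WT mouse 304 on MSX-3 held 5, with Bcas3 (-2.59) and the choroid plexus gene Prlr (-2.17) the highest of its group, and Grin2a (0.45), Jun (0.79) and the astrocyte factor Sox9 (-1.44) the lowest. WT mouse 303 on MSX-3 had the highest Cdkl3 (-4.97) and the lowest Plxnd1 (-1.06) and Tmem114 (-2.28), and mouse 77 of that group had the lowest Gpr17 (1.42), a receptor of oligodendrocyte precursors. Of the WT mice on H2O, mouse 308 had the highest Itgam (6.62) and the lowest Ndufs1 (3.70), and mouse 258 the lowest Grin2b (0.88).

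Among APP/PS1 mice on H2O, mouse 261 had the lowest Cd68 (1.42) and Cst7 (1.46), and mouse 255 the lowest App (5.54). Among APP/PS1 mice on MSX-3, mouse 293 had the highest Uqcrc2 (4.74) and the lowest Aqp1 (-6.65), and mouse 266 the lowest Neurod6 (0.75) and the highest Ptprcap (-2.20).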

How the results depend on the processing

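No probe was called for the cortex interaction in any of the 22 runs without 1 mouse (0 to 0 called) or in 17 of 18 other alternatives. The exception, arrays of scan day 1 only, was added after the data were seen and called 1 probe for the interaction and 1 for MSX-3 in WT mice, with 2 WT arrays on H2O and 3 on MSX-3. It is a dim probe of Mcm3 (log2 interaction 2.65, SE 0.28, adjusted p = 0.00486 with limma, against a smallest adjusted p of the interaction from 0.11 to 1 under the others), and 3 other probes of Mcm3 lay at -0.14, -0.06 and 0.04 over all arrays. With array weights 3006 probes were called for MSX-3 in WT mice and 0 for the interaction. Probes at an unadjusted p under 0.05 for the interaction ran from 170 with all 24 cortex arrays to 8390 with array weights, with 2048 after quantile normalization, 1525 after normexp, 680 with the slide as a fixed term and 2156 with the scan day. Without 1 mouse they ran from 1053 to 5094, highest without WT MSX-3 mouse 282 (5094), APP/PS1 H2O mouse 323 (3543), WT H2O mouse 258 (3529) and WT H2O mouse 308 (2709), and lowest without APP/PS1 H2O mouse 255 (1053), WT MSX-3 mouse 304 (1070) and WT H2O mouse 56 (1168). The cause was not tested. With the mouse as a replicate block, which pairs the regions, the difference between regions had 0 calls (3248 at an unadjusted p under 0.05 as a random block, 5212 as a fixed one, 2601 without). The interaction of the share of spots well above background ran from -1.78 to 1.43 percentage points without 1 mouse. Of 3306 values of named probes under alternatives, 0 were called and 70 had another sign, and 6 of 24 list medians kept 1 sign (astrocytes, blood, clock, inhibitory neurons, interferon and respiratory chain). With all 24 arrays the median over all probes was -0.0994.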

Other observations

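Of the 1756 probes with an unadjusted p under 0.05 for the cortex interaction, 1649 (93.9%) had effects of MSX-3 of opposite sign in the genotypes, against 46.3% of all probes, and selection by the interaction favours this. In 67.1% of them the effect in WT mice was the larger in size, against 56.2% of all probes. They covered 977 named genes, and 746 of the probes had no gene name.

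Adk, the kinase that returns adenosine to AMP, had an interaction of -1.33 (SE 1.21, unadjusted p = 0.286 with limma), the lowest value and the least precise of its list.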
